A study of Mus musculus with 72 samples.

Results

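The nuclear genes of the 5 complexes of mitochondrial oxidative phosphorylation were followed in mouse CD8+ T cells through activation and through 3 ways of depriving the cells of glutamine use. Members were taken by gene symbol: names beginning with Ndufa, Ndufb, Ndufc, Ndufs or Ndufv (complex I), Uqcr (complex III), Cox4 to Cox8 (complex IV) and Atp5 (complex V), with Sdha, Sdhb, Sdhc and Sdhd as complex II. Of 55487 genes in the count table, 107 matched, 95 of these were protein-coding by RefSeq without a pseudogene name, and 88 of them had a mean of at least 1 CPM (counts scaled to a fixed library total) over all 52 RNA libraries. The 88 comprise 46 genes of complex I, 4 of complex II, 8 of complex III, 13 of complex IV and 17 of complex V, and 12896 genes of the whole table passed the same level. Complex I includes 8 Ndufaf genes, which encode assembly factors and not subunits, and complex V includes Atp5s, which is no subunit. Ndufa4, counted in complex I by its symbol, is now placed in complex IV. Cox7a2l, counted in complex IV, is a factor that joins complexes III and IV into supercomplexes. Just inside the level were Cox6a2 at a mean of 1.82 CPM, Ndufb4c at 1.87 and Atp5s at 3.71, and just outside were Cox7a1 at 0.557, Cox4i2 at 0.298 and Ndufa4l2 at 0.213. Cox6a2 passed only through its level in the glutamine-free groups, so its rise there is a description of how it came to be a member. Counts of members that rose or fell in comparisons with glutamine-free cells include this gene. Ndufb1-ps, at 54.3 CPM, was left out by its name.

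The cells were OT-I CD8+ T cells, which carry a transgenic T cell receptor for the ovalbumin peptide SIINFEKL, prepared from spleens after red cell lysis. They were sampled unstimulated, or after 4, 24 and 48 h with 10 ng/mL peptide and 100 IU/mL interleukin-2, in 13 groups of 4 RNA libraries. At each time the stimulated groups were vehicle, CB-839 (an inhibitor of glutaminase) at 1 µM, DON (6-diazo-5-oxo-L-norleucine, a glutamine analogue that blocks glutamine-using enzymes broadly) at 1 µM, and medium without glutamine. CB-839 was dissolved in DMSO and DON in PBS, and 1 vehicle group per time stands for both, so every treatment at a time was compared with the same 4 vehicle libraries. CUT&RUN peak lists for the histone marks H3K27ac and H3K27me3, 1 per mark and condition at 48 h, were also used. Nothing in the labels ties the replicate letters A to D to separate animals or cultures, so the p-values measure the spread between libraries, which may be technical.

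Complex I (NADH dehydrogenase) and complex II (succinate dehydrogenase) pass electrons to ubiquinone, complex III passes them to cytochrome c, complex IV (cytochrome c oxidase) passes them to oxygen, and complex V (ATP synthase) makes ATP from the proton gradient. Complex II oxidises succinate, an intermediate that cells can derive from glutamine through glutaminase and the tricarboxylic acid cycle. CD8+ T cells enlarge their mitochondria after antigen recognition, and most subunits of the complexes are made from nuclear genes such as those described here.

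Library totals ran from 25.6 to 51 M counts. All 10 CD8 T cell markers had a mean of at least 1 CPM in every group, with a summed level of 2858 to 7367 CPM. B cell markers, of which 7 to 10 of 10 had a mean of at least 1 CPM in the unstimulated and 4 h groups and 3 to 5 in the later ones (Ms4a1 was listed at 0 in vehicle at 48 h), summed to 1494 to 1762 CPM in unstimulated and 1258 to 2927 CPM in 4 h libraries but to 265 to 798 CPM at 24 and 48 h. Myeloid markers summed to 43.9 to 233 CPM, and natural killer markers to 9.12 to 50.5 CPM. Erythroid markers summed to at most 59.2 CPM, and to at most 1.19 CPM at 24 and 48 h. The B cell markers thus moved with time, and their part in the activation differences was not tested. In bulk RNA, fewer cells of a type and less RNA per cell cannot be told apart.

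The library labelled vehicle 48 h replicate C stood apart from the other 3 of its group. All members together summed to 22975 CPM in it, against 16044, 14943 and 16723 CPM in replicates A, B and D. Genes with under 1000 exonic bases, members and ribosomal protein genes left out, took 7.72% of its counts against 5.51 to 5.89% in the other 3. Ribosomal protein genes took 9.06% against 5.52 to 6.26%, and genes over 5000 bases took 32.2% against 37.8 to 39.9%. All 20 members under 1000 bases were higher in C than in the mean of A, B and D, with a median log2 difference of 0.83, and so were 34 of 35 members of the next length class (median 0.77) and 29 of the 33 longest (median 0.29). Results that use the vehicle group at 48 h are therefore given with and without this library.

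Per length, the most abundant member over all libraries was Atp5b, the catalytic β subunit of ATP synthase, at a mean of 1096 TPM (counts scaled to gene length and a fixed library total), followed by Atp5a1, its α subunit, at 883 TPM. The length used is that of all annotated exons of a gene, which can exceed the length of its main transcript. In complex IV Cox8a led at 779 TPM and Cox4i1 followed at 669 TPM, and in complex III Uqcr10 led at 691 TPM. The complex I subunits Ndufa2 (338 TPM) and Ndufa1 (332 TPM) and the complex II anchor Sdhd (286 TPM) led their complexes at lower levels. Assembly factors lay lower, Ndufaf4 at 48.0 TPM and Ndufaf2 at 21.5 TPM. The lowest members per length were Ndufb2 (2.89 TPM) and Atp5l (3.70 TPM), both of which have near-identical copies elsewhere in the genome that the authors' counting could have split, so their levels are uncertain, as are those of Ndufb4, Ndufb4c, Ndufab1, Uqcrh, Cox7c, Atp5g2 and Atp5k. The TPM of Ndufb2 and Atp5l are also lowered by their annotated exonic lengths of 5628 and 6443 bases. By CPM, at means of 7.32 and 10.7, they lay above Cox6a2, Ndufb4c, Atp5s and Cox6b2.

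Most members of every complex rose by 24 h of activation, and complex V had the largest gain in summed level at 24 and 48 h. The levels are CPM scaled by TMM (trimmed mean of M values), which sets the libraries level over the bulk of genes, and sums scaled by library totals alone are given beside them. The summed level of complex V was 2592 ± 353 CPM in unstimulated cells (mean ± SD, n = 4), 4519 ± 186 in vehicle at 4 h, 6815 ± 287 at 24 h and 7501 ± 1160 at 48 h, which is 1.74, 2.63 and 2.89 times the unstimulated mean. Complex III rose from 826.1 ± 114 CPM to 1.83, 2.10 and 2.47 times that level, and complex II from 449.9 ± 53.9 CPM to 1.21, 2.09 and 2.40 times. Complex I began at 2054 ± 275 CPM and reached 1.24, 1.83 and 2.12 times, and complex IV began at 1476 ± 198 CPM and reached 1.13, 1.47 and 1.82 times. Unstimulated and vehicle libraries did not overlap in any of the 5 sums at any time except for complex IV at 4 h. With library totals alone the 4 h sums of complexes I, II and IV were 1.03, 1.0 and 0.939 times unstimulated and overlapped it, while III and V were 1.52 and 1.44 times and did not. At 24 h the ratios were then 1.38, 1.57, 1.58, 1.1 and 1.97 for complexes I to V, with overlap in complex IV, and at 48 h 1.59, 1.8, 1.85, 1.35 and 2.17 without overlap (1.46, 1.78, 1.66, 1.17 and 2.06 without C, again without overlap). Without replicate C the 48 h ratios were 1.90 for complex I, 2.31 for II, 2.16 for III, 1.52 for IV and 2.68 for V. The order of the 5 was then V, II, III, I and IV, where all 4 libraries had put III before II. The last place of complex IV rests on a sum that includes the fall of Cox7a2l, described below, and that was not computed without it. In complex V the largest genes were Atp5b and Atp5a1, at means of 2056 and 1224 CPM by library totals, and its sum weighs them most. By median log2 fold change per gene complex V did not lead. At 24 h the medians of complexes III, II and V were 1.19, 0.98 and 0.89. At 48 h they were 1.25, 1.21 and 1.19, or 1.23, 1.14 and 1.04 without C. The sums carry no test, since the members were chosen with results of these data known.

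**Figure D1:**
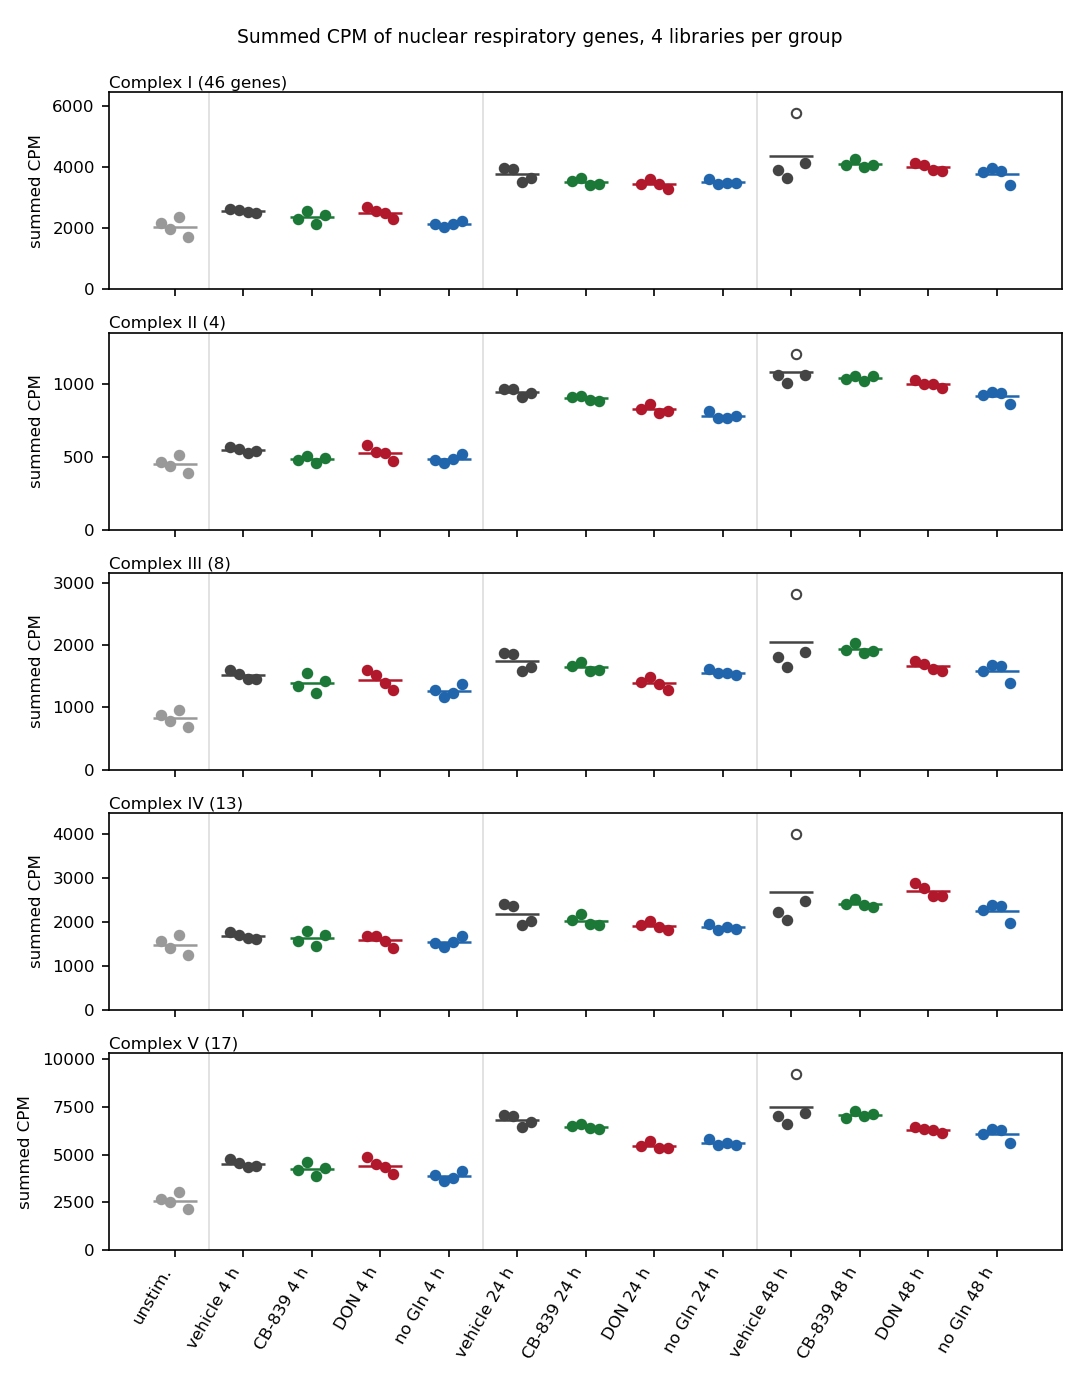
Summed level of each complex in CPM (vertical axis, from 0) in each of the 13 groups (horizontal axis), 1 panel per complex; points are the 4 libraries, lines are means, and the open circle is vehicle 48 h replicate C. That library, at 9202 CPM in complex V, lies above its group's other 3 libraries in all 5 panels, and with this TMM scaling the mean of unstimulated cells is the lowest of the 13 in each panel.

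Gene by gene, 53 of 88 members rose and 14 fell at 4 h against unstimulated cells (edgeR quasi-likelihood test, adjusted p under 0.05 over 18317 genes), where 33.9% of all genes tested rose and 41% fell. At 24 h 69 rose and 7 fell (all genes 38.7% and 45.5%), and at 48 h 74 rose and 3 fell (38.3% and 45.1%), or 72 and 6 without replicate C (37.4% and 46%). The median log2 fold change of the members was 0.45, 0.89 and 1.15 at the 3 times (0.99 at 48 h without C), beside -0.21, -0.18 and -0.16 over all genes. Scaling by library totals alone moved the median of all genes to -0.45, -0.48 and -0.44, lowered the members' 4 h counts to 39 risen and 23 fallen, and left every complex's median above 0. From 4 h to 24 h 50 members rose and 6 fell (36.4% and 37.8%), and from 24 h to 48 h 20 rose and 1 fell (15.6% and 16.8%), or 16 and 3 without C (15.1% and 16.2%).

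Complex I moved in stages: 25 of its 46 genes rose and 9 fell at 4 h (median log2 fold change 0.30), 36 and 2 at 24 h (0.84) and 41 and 0 at 48 h (1.08), or 39 and 2 without C (0.89). Its assembly factors rose early, 5 of 8 at 4 h with a median of 0.97. Ndufaf4, an assembly factor of complex I, was at 25.7, 28.6, 27.4 and 21.8 CPM in unstimulated cells and at 125, 126, 124 and 125 CPM at 4 h. For Ndufaf4 the log2 fold change was 2.23 (SE 0.080, adjusted p = 2.81e-15). The 4 h libraries lay close to each other and far above every unstimulated one, and the gene then fell to 69, 70.4, 78.9 and 83.1 CPM at 24 h. For Ndufaf4 the log2 fold change was -0.81 (SE 0.080, adjusted p = 1.17e-08). Ndufaf2, an assembly factor related in sequence to the subunit Ndufa12, went from 5.77, 4.8, 7.24 and 5.0 CPM to 26.7, 26.1, 25.1 and 25.5 at 4 h and 36, 39.8, 43 and 44.5 at 24 h. For Ndufaf2 the log2 fold change was 2.72 (SE 0.12, adjusted p = 3.95e-14). Over 65.6% of its exonic bases it overlaps B230220B15Rik on the other strand, a gene with 0 to 3 counts per library from its own exons, and the counting did not use strand. Ndufa12 itself rose from 17.3, 14.8, 18.5 and 14.1 to 75.9, 74.1, 72.7 and 74.2 CPM at 4 h (log2 fold change 2.16, SE 0.18, adjusted p = 3.19e-09), with no overlap between the groups. Ndufaf6 had risen by 48 h (2.21, or 2.16 without C), and Ndufaf7, a methyltransferase for a core subunit, rose between 4 and 24 h (1.46) with a 4 h difference from unstimulated cells of -0.06 that did not pass.

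Some genes of complex I fell at 4 h, and some of these rose later. Ndufb10 fell from 90.2, 81.4, 102 and 69.4 CPM to 43.7, 41.6, 42 and 39.4 at 4 h (log2 fold change -1.08, SE 0.10, adjusted p = 9.28e-09) and then rose to 129.5, 129.6, 104 and 114 at 24 h. For Ndufb10 the log2 fold change was 1.43 (SE 0.10, adjusted p = 2.29e-10). The 3 groups did not overlap. Ndufv3, a small accessory subunit of the NADH-binding module, fell from 69.1, 63.6, 77.5 and 55.9 to 21.5, 19.3, 18.6 and 18.8 CPM at 4 h. For Ndufv3 the log2 fold change was -1.80 (SE 0.17, adjusted p = 1.24e-08). It stood at 48.8, 46.2, 39.3 and 36.5 CPM at 24 h and 70.4, 62, 131 and 84.9 at 48 h, so the 48 h libraries other than C were back within the unstimulated range or just above it. Its rise from 24 to 48 h was 1.0 with C and 0.75 without it, past the threshold in both. Ndufa6 (-0.82), Ndufb11 (-0.83), Ndufa13 (-0.50), Ndufb3 (-0.39), Ndufaf3 (-0.65) and Ndufa10 (-0.15) were also among the 9 that fell at 4 h. Ndufa13 shares 30% of its exonic bases with Tssk6, and the counting could not separate the pair. The 7 catalytic core subunits were all higher than in unstimulated cells at 24 h, from 0.54 for Ndufs3 to 1.25 for Ndufs8. Ndufs1, the largest of the iron-sulfur subunits, rose from 69, 63.4, 73.5 and 61.8 CPM to 95.5, 99.4, 98.2 and 97.3 at 4 h and 132, 141, 150.3 and 157 at 24 h (log2 fold change 0.99, SE 0.074, adjusted p = 2.51e-10), each group above the one before.

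All 4 genes of complex II had risen by 24 h, with medians of 0.40, 0.98 and 1.21 at the 3 times (1.14 at 48 h without C). Sdhd, which anchors the enzyme in the membrane, rose from 70.5, 65.2, 80 and 57.4 CPM to 92, 89.3, 79.8 and 82.2 at 4 h and 215, 217, 202 and 211 at 24 h. For Sdhd the log2 fold change was 1.21 (SE 0.080, adjusted p = 6.29e-11 between the latter 2). Sdhb, the iron-sulfur subunit, was at 85.5, 85.7, 94.4 and 69.8 CPM in unstimulated and 202, 193, 185 and 186 CPM in 24 h cells (log2 fold change 1.07, SE 0.085, adjusted p = 6.9e-10), without overlap. Sdha, the flavoprotein that oxidises succinate, did not pass at 4 h (-0.06) and rose by 24 h. For Sdha the log2 fold change was 0.69 (SE 0.057, adjusted p = 1.24e-09). In complex III 6 of 8 genes rose at 4 h and 7 at 24 h (medians 0.87 and 1.19), and Uqcrh, a hinge protein with near-identical copies, was the gene that did not rise at any time (-0.33 at 24 h and 0.03 at 48 h, or -0.22 without C, a fall past the threshold). Uqcrq, a ubiquinone-binding subunit, had the largest rise of the complex at 4 h, from 83.7, 72.6, 94.4 and 62.2 to 293, 280.4, 263 and 264 CPM at 4 h. For Uqcrq the log2 fold change was 1.78 (SE 0.221, adjusted p = 1.69e-06). The core protein Uqcrc1 went from 203, 188, 226 and 163 to 406, 378, 357 and 364 CPM. For Uqcrc1 the log2 fold change was 0.91 (SE 0.092, adjusted p = 2.53e-08). The Rieske iron-sulfur protein Uqcrfs1 went from 114, 106, 123 and 93.1 to 241, 237, 224 and 223 CPM. For Uqcrfs1 the log2 fold change was 1.05 (SE 0.070, adjusted p = 4.68e-11). Both pairs of groups were fully separated.

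Complex IV, with its genes taken by symbol, rose least in summed level. That sum includes the fall of Cox7a2l, given below, and was not computed without this gene. In complex IV 7 genes rose and 2 fell at 4 h (median 0.42). At 24 h 10 rose and 3 fell (0.81), and at 48 h 10 and 2 with or without C (1.00 and 0.73). The main structural isoform Cox4i1 did not pass at 4 h (0.30) and rose by 0.37 at 24 h, whereas Cox5a, its neighbour in the complex, went from 43.7, 41.1, 50.5 and 35 to 115, 112, 106 and 108 CPM within 4 h. For Cox5a the log2 fold change was 1.34 (SE 0.108, adjusted p = 1.03e-09). Cox7a2l, also called Scaf1 or COX7RP, which joins complexes III and IV into supercomplexes, moved the other way. It was at 335, 318, 351 and 283 CPM in unstimulated cells and at 68, 68.5, 74.5 and 75.1 at 4 h (log2 fold change -2.21, SE 0.070, adjusted p = 8.62e-16), 87.7, 88.9, 86.8 and 94.4 at 24 h (-1.97) and 119.6, 114, 151 and 119 at 48 h (-1.5, or -1.55 without C). The highest stimulated vehicle library, at 151 CPM, stayed below the lowest unstimulated one, at 283 CPM. Its relative Cox7a2, an ordinary subunit, rose in the same libraries from 69.9, 60.9, 73.7 and 55.3 CPM to 175, 179, 150.2 and 157 at 24 h. For Cox7a2 the log2 fold change was 1.23 (SE 0.136, adjusted p = 1.05e-07). Per length, Cox7a2l stood at 555 TPM and Cox7a2 at 175 TPM before stimulation, and at 129 and 373 TPM at 24 h, so the order of the pair was exchanged. Cox6b2, known as a testis isoform of Cox6b1, fell from 4.42, 4.4, 5.1 and 3.43 CPM to 0.942, 0.868, 1.92 and 0.702 at 4 h and was back at 3.87, 4.49, 7.82 and 6.88 at 48 h.

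In complex V 12 of 17 genes rose at each time, with 3 falling at 4 h, 2 at 24 h and 1 at 48 h with or without C (medians 0.59, 0.89 and 1.19, the last 1.04 without C). Atp5b rose from 786, 760.3, 925 and 663 CPM to 1882, 1797, 1719 and 1741 at 4 h (log2 fold change 1.15, SE 0.071, adjusted p = 1.51e-11) and 2706, 2704, 2535 and 2571 at 24 h, each group wholly above the one before. The c ring of ATP synthase is encoded by 3 genes, Atp5g1, Atp5g2 and Atp5g3, which give the same mature protein. Atp5g1 rose from 15.3, 14.1, 20.2 and 12.4 to 67.3, 62.1, 59.2 and 61.8 CPM at 4 h (log2 fold change 1.98, SE 0.193, adjusted p = 4.22e-08), the largest rise of the complex, and stayed near that level at 24 h (71.3, 63.3, 56.5 and 59.2 CPM). Atp5g3, the most abundant of the 3 per length, rose more slowly, from 184, 186, 206 and 153 to 417, 416, 379.5 and 390.5 CPM at 4 h and 547, 542, 498 and 540 at 24 h. For Atp5g3 the log2 fold change was 1.42 (SE 0.074, adjusted p = 8.64e-13). Atp5l, a subunit of the membrane part, was the gene that fell at all 3 times, from 20, 24.6, 20.2 and 20.8 to 6.82, 6.33, 8.87 and 8.54 CPM at 24 h (log2 fold change -1.62, SE 0.12, adjusted p = 3.59e-10), with the uncertainty about its copies given above. Atp5c1, the central stalk, fell slightly at 4 h (-0.29) and was up at 24 h (0.89).

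**Figure D2:**
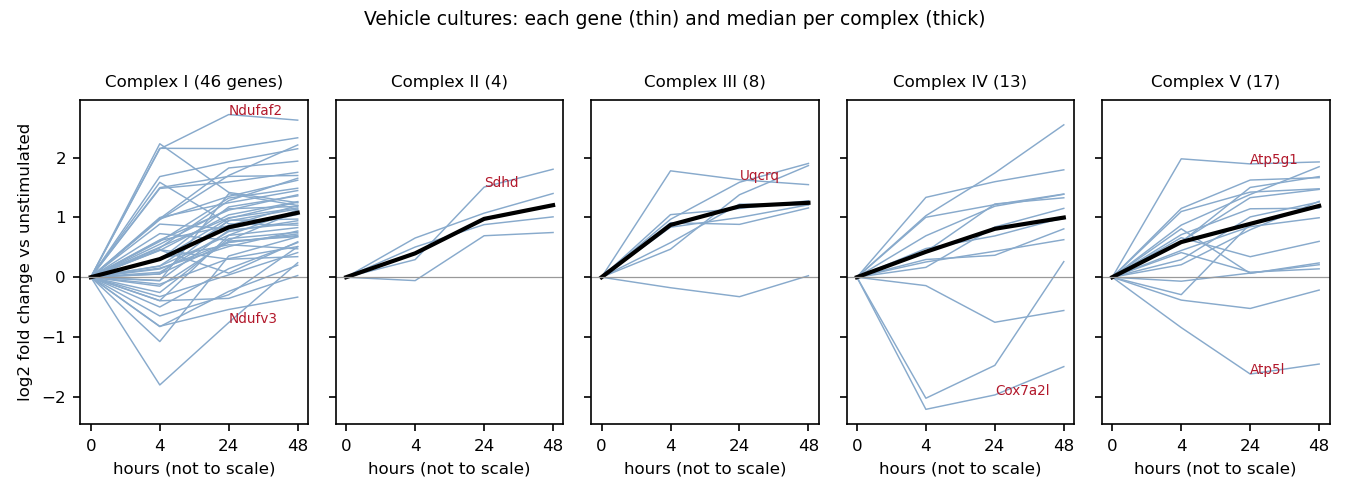
Log2 fold change of each of the 88 members against unstimulated cells (vertical axis) at 4, 24 and 48 h in vehicle, 1 panel per complex; each line is a gene and the thick line is the median of the complex. Medians lie above 0 at every time, from 0.30 for complex I at 4 h to 1.25 for complex III at 48 h, and Cox7a2l in complex IV is the lowest line, at -2.21 at 4 h.

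Nuclear respiratory genes are classically controlled through nuclear respiratory factor 1 (NRF1) and through ETS factors such as GABPA, and T cell activation engages MYC, so promoters were searched for short forms of the sites of these and other factors. RefSeq promoters (build GRCm38.p6, 250 bases before to 50 after the start) were matched for 73 of the 88 members. The NRF1 letters GCGCATGC, read on both strands, were in 12 of the 73 (16.4%), beside 5.83% of all 8709 promoters of this length. GABPA letters CCGGAAG were in 17 (23.3%, beside 20.4%), YY1 letters AAGATGGC in 10 (13.7%, beside 5.2%) and ESRRA letters CAAGGTCA in 4 (5.48%, beside 0.953%). MYC E-box letters CACGTG were in 6 (8.22%, beside 10.6%), SP1 letters GGGCGG in 34 (46.6%, beside 65.9%), and the composite ATF4 and C/EBP letters TGATGNAA were in 0 of 73, beside 2.24% of all promoters. A match is a description of the letters only. NRF1 matches were in 5 of 40 complex I promoters, 1 of 3 in complex II, 2 of 5 in complex III, 1 of 10 in complex IV and 3 of 15 in complex V, and 8 of the 10 YY1 matches were in complex I. The first 4 promoters below each hold an NRF1 match and belong to genes that rose on activation, and the last 2 belong to the c ring genes that parted in glutamine-free medium; capitals mark every match, on either strand.
Ndufaf4, chr4:24897833-24898132, plus strand: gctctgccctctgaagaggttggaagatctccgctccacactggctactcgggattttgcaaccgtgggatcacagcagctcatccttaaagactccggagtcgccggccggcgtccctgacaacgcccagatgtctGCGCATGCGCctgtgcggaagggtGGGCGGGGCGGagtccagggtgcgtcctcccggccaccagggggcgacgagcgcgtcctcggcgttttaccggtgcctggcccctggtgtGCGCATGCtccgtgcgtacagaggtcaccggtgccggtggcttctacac
Sdhb, chr4:140961021-140961320, plus strand: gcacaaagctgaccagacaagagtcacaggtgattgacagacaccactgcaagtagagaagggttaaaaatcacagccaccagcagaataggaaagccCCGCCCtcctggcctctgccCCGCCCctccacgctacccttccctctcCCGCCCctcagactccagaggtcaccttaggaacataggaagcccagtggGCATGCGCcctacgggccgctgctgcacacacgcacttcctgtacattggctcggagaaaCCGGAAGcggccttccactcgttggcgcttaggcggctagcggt
Uqcrc1, chr9:108936398-108936697, plus strand: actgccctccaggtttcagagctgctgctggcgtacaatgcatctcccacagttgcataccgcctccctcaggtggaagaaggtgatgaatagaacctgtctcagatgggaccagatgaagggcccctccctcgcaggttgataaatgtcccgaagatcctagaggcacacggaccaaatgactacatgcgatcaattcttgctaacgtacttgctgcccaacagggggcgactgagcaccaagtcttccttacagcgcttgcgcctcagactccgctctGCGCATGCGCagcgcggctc
Uqcr11, chr10:80406772-80407071, minus strand: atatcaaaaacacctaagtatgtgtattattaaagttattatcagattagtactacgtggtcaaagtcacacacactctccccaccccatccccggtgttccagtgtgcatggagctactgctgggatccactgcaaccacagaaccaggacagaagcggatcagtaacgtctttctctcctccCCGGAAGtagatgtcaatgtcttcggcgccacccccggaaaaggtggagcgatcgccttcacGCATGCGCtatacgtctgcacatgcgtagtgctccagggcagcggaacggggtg
Atp5g1, chr11:96075582-96075881, minus strand: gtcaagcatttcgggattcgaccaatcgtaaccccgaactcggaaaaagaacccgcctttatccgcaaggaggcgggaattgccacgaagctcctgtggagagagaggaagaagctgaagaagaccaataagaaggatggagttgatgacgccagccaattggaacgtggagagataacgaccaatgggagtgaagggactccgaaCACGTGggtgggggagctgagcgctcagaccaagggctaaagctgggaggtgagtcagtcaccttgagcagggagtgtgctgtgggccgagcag
Atp5g3, chr2:73911277-73911576, minus strand: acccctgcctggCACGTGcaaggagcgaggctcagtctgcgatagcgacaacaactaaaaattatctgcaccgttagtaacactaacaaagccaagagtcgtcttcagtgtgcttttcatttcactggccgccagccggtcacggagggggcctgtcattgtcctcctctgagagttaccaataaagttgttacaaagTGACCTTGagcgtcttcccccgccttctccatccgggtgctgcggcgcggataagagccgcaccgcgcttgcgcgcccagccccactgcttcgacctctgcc

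In these promoters, with position 1 at the RefSeq start, the NRF1 letters begin at -113, -111 and 1 in Ndufaf4, the first 2 being a palindrome read on both strands, at -54 in Sdhb, at 30 and 32 in Uqcrc1 (again a palindrome) and at -4 in Uqcr11. Sdhb also holds GABPA letters at 6 and SP1 letters at -152, -132 and -104, Uqcr11 holds GABPA letters at -66, and Ndufaf4 holds SP1 letters at -89 and -84, which overlap each other. Atp5g1 and Atp5g3 hold no NRF1, GABPA or SP1 letters in these windows but 1 E-box each, at -44 and -238, and Atp5g3 holds ESRRA letters at -52.

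The histone marks placed most member promoters in acetylated chromatin in vehicle cells at 48 h. H3K27ac, a mark of active promoters and enhancers, had a peak within 1000 bases of the start of 55 of 88 members in vehicle (62.5%), beside 48.1% of the 12896 genes with mean CPM of at least 1, and of 32 members in glutamine-free cells (36.4%, beside 32.5%). By complex these were 25 of 46 genes in complex I, 4 of 4 in II, 7 of 8 in III, 5 of 13 in IV and 14 of 17 in V in vehicle, and 20, 2, 4, 2 and 4 in glutamine-free cells. The start was that of the counting annotation. For Cox7a2l, Atp5d and Atp5g2 the RefSeq start lay 2997, 3643 and 1305 bases from it, outside the window. Cox7a2l and Atp5d had no H3K27ac peak by this count, so a peak at their RefSeq start could have been missed. Sdhb and Atp5g3 had a peak in both conditions, Uqcrc1, Uqcr11 and Atp5g1 in vehicle, and Ndufaf4 in glutamine-free cells. The lists differ greatly in length: 9681 peaks in vehicle, 6687 without glutamine, 117 with CB-839 and 33 with DON, and the 0 members with a peak in the last 2 stand beside 0.706% and 0.225% of all genes. H3K27me3, a mark of repressed genes, lay at 3 member promoters in vehicle (among them Ndufa8 and Atp5g2; 3.41%, beside 8.22% of all genes), at 3 with CB-839 (among them Cox6b2 and Atp5g2), and at 0 with DON and 0 without glutamine. Each list merges 2 libraries and keeps peaks by their irreproducible discovery rate (IDR), a measure of how well a peak recurs between libraries, at 0.05 or less. The lists give no value per library for a test between conditions, and counts from lists of unequal length show no change between conditions.

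At 4 h the glutamine-free cells had lower levels in 4 of the 5 complexes. Their summed level was 0.833 times that of vehicle for complex I, 0.887 for II, 0.84 for III and 0.855 for V, each without overlap between the groups, and 0.919 for complex IV, where the groups overlapped. With library totals alone the ratios were 0.843, 0.898, 0.85, 0.93 and 0.866 for complexes I to V, all 5 without overlap. Of the 88 members 57 fell and 7 rose (edgeR, adjusted p under 0.05), where 21.4% of the 18274 genes tested fell and 16.2% rose. By complex, 32 fell and 2 rose in complex I (median log2 fold change -0.26), 2 and 0 in II (-0.14), 6 and 1 in III (-0.31), 5 and 3 in IV (-0.16) and 12 and 1 in V (-0.21), beside a median of 0.05 over all genes. The complex I assembly factors fell in 6 of 8, with a median of -0.44. B cell markers ranged more widely in these libraries, 1267 to 2927 CPM against 1671 to 2261 in vehicle, and the part of other cells in the differences was not tested.

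Uqcr11, the smallest subunit of complex III, was at 45.1, 44.4, 44 and 41.2 CPM in vehicle and 23.3, 19.2, 25.5 and 25.7 without glutamine. For Uqcr11 the log2 fold change was -0.87 (SE 0.11, adjusted p = 4.35e-06). Ndufa8 was at 61, 59, 60.2 and 56.2 CPM in vehicle and 29.6, 29.9, 36.7 and 32.5 without glutamine (log2 fold change -0.85, SE 0.060, adjusted p = 3.37e-09), and Ndufb10 at 22, 24.1, 29.1 and 23.9 CPM against the vehicle values given above. For Ndufb10 the log2 fold change was -0.73 (SE 0.080, adjusted p = 5.99e-07). In all 3 genes the highest glutamine-free library was below the lowest vehicle one. Atp5g3 fell as well, to 276, 262, 265 and 285 CPM (log2 fold change -0.53, SE 0.054, adjusted p = 3.87e-07), as did Uqcrc1 (-0.48), Uqcrc2 (-0.51), Sdhb (-0.41) and Ndufa4 (-0.56), a protein named for complex I and now placed in complex IV. The largest rise of an abundant member was that of Cox7a2l, at 139.5, 128, 151 and 155 CPM (log2 fold change 1.03, SE 0.070, adjusted p = 3.94e-09), between the vehicle and the unstimulated libraries and overlapping neither. Cox7a2 (0.27), Ndufaf4 (0.24) and Uqcrq (0.25) also rose.

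With CB-839 at 4 h 21 members fell and 1, Cox7a2l, rose (all genes 6.64% and 5.85%), and leaving out 1 library gave 10 (without vehicle A) to 20 members in all (12 to 14 without vehicle B or D or CB-839 A or C). Complex I had 11 of the falls, and complexes II, III, IV and V had 3, 3, 1 and 3. The summed level of complex II was 0.884 times vehicle without overlap (0.877 with library totals), and the other 4 sums overlapped, although with library totals those of I, III and V (0.915, 0.908 and 0.93) did not. Ndufa7 (log2 fold change -0.49, SE 0.080, adjusted p = 0.000807), Ndufa8 (-0.47) and Ndufb9 (-0.36) fell most among members whose groups did not overlap, with Ndufa7 at 65.7, 62.3, 62.8 and 67.1 CPM in vehicle and 43.9, 53.1, 37.9 and 51.8 with CB-839. Sdha fell by 0.29 on the log2 scale, Sdhb by 0.27 and Sdhc by 0.23, and Sdhd gave 0.14, which did not pass. DON at 4 h changed none: 0 of 88 members passed in edgeR and 0 in DESeq2, 7 had an unadjusted p under 0.05 in edgeR, and 0.0% of all genes passed in either direction. Tested directly against each other at 4 h, DON was higher than CB-839 in 21 members and lower in 2 (7.67% and 8.32% of all genes), for example Ndufa8 (0.46) and Ndufb9 (0.42). Glutamine-free cells were lower than CB-839 cells in 29 members and higher in 7 (18.5% and 12.9%), lower most in Ndufaf7 (-0.63) and Uqcr11 (-0.58) and higher most in Cox7a2l (0.79) and Uqcrq (0.55) among the abundant members.

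**Figure D3:**
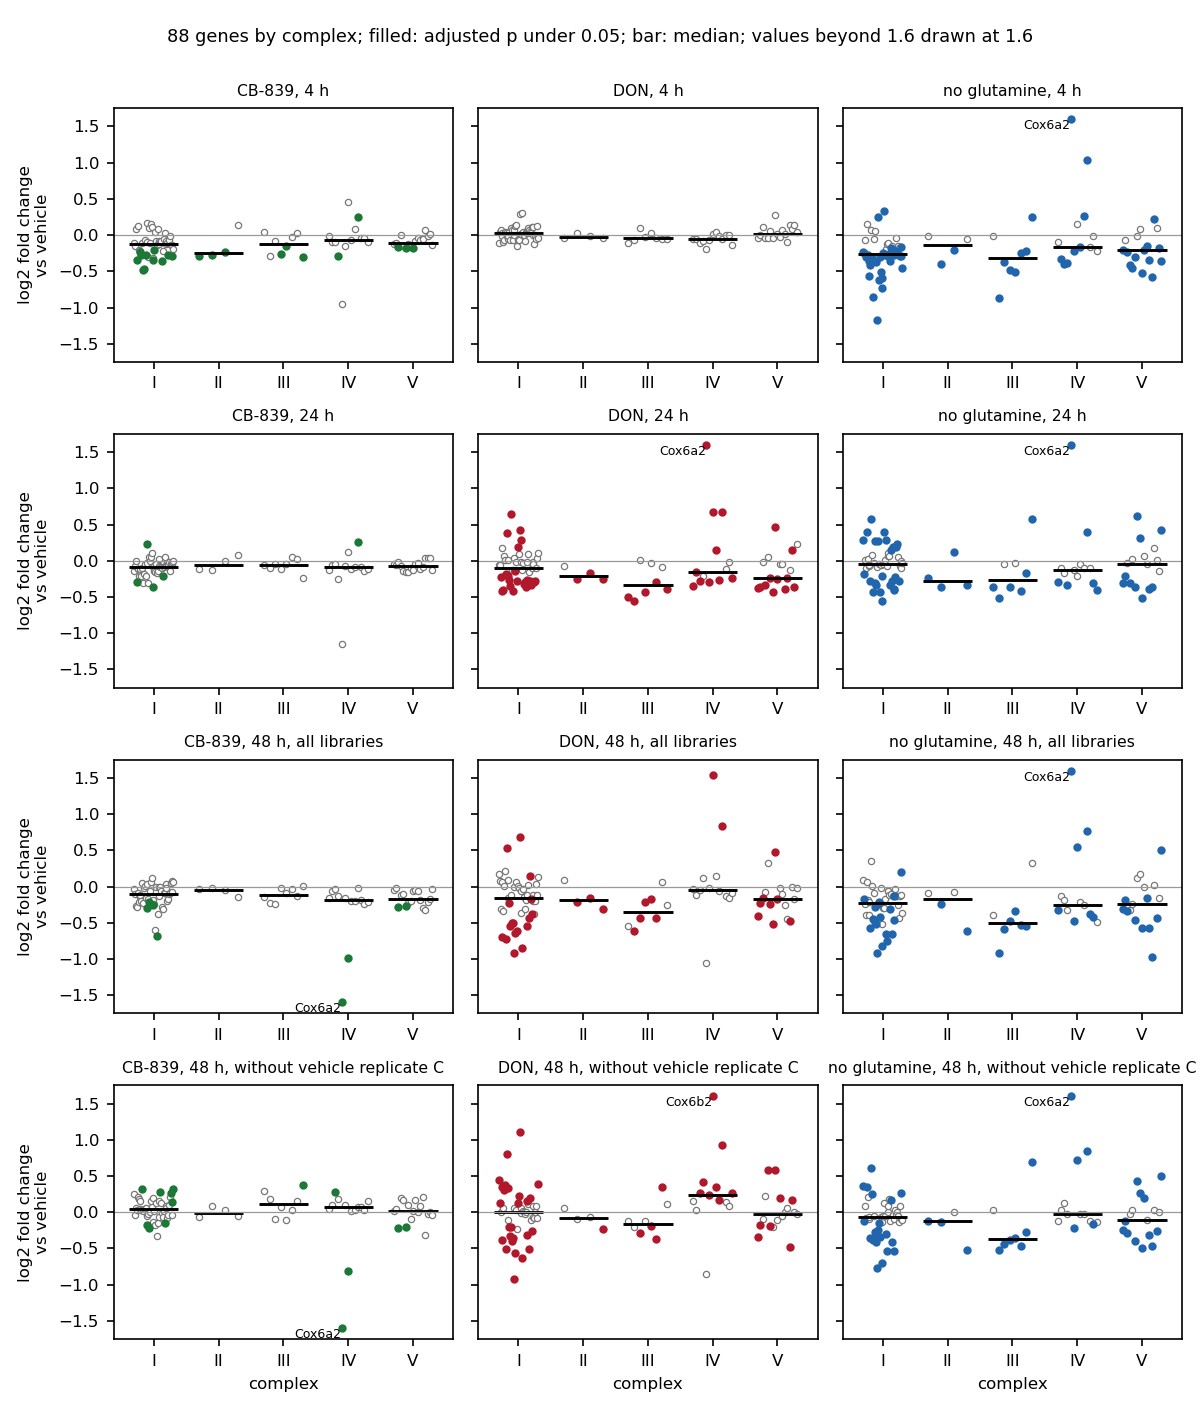
Log2 fold change of the 88 members against vehicle (vertical axis) for CB-839, DON and glutamine-free medium at 4, 24 and 48 h, grouped by complex (horizontal axis), filled where the adjusted p is under 0.05, with the median of each complex as a bar; the 48 h row is repeated without vehicle replicate C, and values beyond 1.6 are drawn at 1.6. At 4 h no point is filled with DON and all 5 medians are below 0 without glutamine, and the points drawn at the upper edge include Cox6a2 without glutamine, whose value at 24 h is 5.43.

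At 24 h complex V was lower in summed level with DON and without glutamine, and complex II without glutamine, under both scalings. The share of members that passed in either direction was near that of all genes for each treatment: 59.1% with DON beside 58%, 58% without glutamine beside 58.9%, and 5.68% with CB-839 beside 4.95%, so these totals are no result about the members. With DON 41 fell and 11 rose (all 16269 genes: 29.9% and 28.1%), with complexes II, III and V lower in summed level without overlap, at 0.876, 0.799 and 0.80 times vehicle. With library totals alone these 3 ratios were 1.02, 0.929 and 0.929, and the groups overlapped in II and III. Scaling by library totals alone, which moved the median of all genes from -0.01 to 0.19 with DON and from 0.03 to 0.13 without glutamine, turned the DON split to 13 fallen and 36 risen and the medians of complexes I and IV from -0.10 and -0.15 to 0.09 and 0.04. The medians of complexes III (-0.34), V (-0.24) and II (-0.21) stayed below 0 under both, at -0.15, -0.05 and -0.02. Without glutamine 33 fell and 18 rose (28.9% and 30%), or 26 and 23 with library totals, and complexes II and V were lower in sum without overlap, at 0.828 and 0.823 times vehicle (0.915 and 0.91 with library totals, also without overlap). Cox6a2 is among the 18 that rose, as a description only. B cell markers summed to 467 to 666 CPM with DON and 265 to 314 without glutamine against 371 to 387 in vehicle, and their part in these differences was not tested. Medians there were -0.28 for II, -0.27 for III and -0.12 for IV, and those of I (-0.04) and V (-0.05) turned to 0.06 and 0.05 with library totals.

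Complex III carried the largest falls with DON. Uqcr11 was at 101, 98.6, 74.5 and 74.1 CPM in vehicle and 58.9, 63.6, 60 and 50.7 with DON (log2 fold change -0.55, SE 0.090, adjusted p = 4.3e-05), and Uqcr10 fell by 0.50 on the log2 scale. Uqcrc1 stood at 431, 423, 346 and 365 CPM against 294, 302, 289 and 252. For Uqcrc1 the log2 fold change was -0.43 (SE 0.070, adjusted p = 3.9e-05). The DON libraries of these genes were all below the vehicle ones. Atp5b was at 2019, 2078, 1975 and 1987 CPM with DON (log2 fold change -0.36, SE 0.045, adjusted p = 1.38e-06) and 2331, 2178, 2202 and 2111 without glutamine (-0.21), both wholly below vehicle. Sdhd was at 170.5, 179.6, 163 and 181 CPM with DON and 171, 157, 162 and 162 without glutamine (-0.25 and -0.33). Ndufs1 fell without glutamine, to 109, 106, 105 and 112 CPM (log2 fold change -0.38, SE 0.066, adjusted p = 4.84e-05), and gave -0.15 with DON, which did not pass. Members that rose with DON included Cox7a2l, at 148, 152, 142 and 119.9 CPM (log2 fold change 0.68, SE 0.060, adjusted p = 1.07e-08), and the assembly factor Ndufaf1, at 44.7, 48, 45.6 and 47.6 CPM against 28.6, 28, 32.6 and 31.5. For Ndufaf1 the log2 fold change was 0.65 (SE 0.060, adjusted p = 4.17e-08). Both were also up without glutamine (0.40 and 0.27) and with CB-839 (0.25 and 0.23).

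Without glutamine the members of a family parted. Among the c ring genes, Atp5g1 rose to 96.5, 87.4, 96.1 and 91.7 CPM from 71.3, 63.3, 56.5 and 59.2 (log2 fold change 0.61, SE 0.070, adjusted p = 1.92e-07), while Atp5g3 fell to 363, 358, 366 and 366 from 547, 542, 498 and 540. For Atp5g3 the log2 fold change was -0.51 (SE 0.040, adjusted p = 7.09e-09). Neither pair of groups overlapped, and per length Atp5g3 remained the more abundant, at 389 TPM against 44.2 for Atp5g1. The lengths used were 2181 annotated exonic bases for Atp5g3 and 4912 for Atp5g1, which makes the gap in TPM wider than that in CPM. With DON at 24 h both fell, Atp5g1 to 45.8, 44.6, 42.9 and 49.3 CPM (-0.43) and Atp5g3 by 0.25 on the log2 scale, and Atp5g1 differed between the 2 treatments by 1.04. In complex III Uqcrq rose to 398, 378, 383 and 356 CPM from 304, 299, 225 and 223 (log2 fold change 0.57, SE 0.10, adjusted p = 6.26e-05), while Uqcr11, Uqcr10, Uqcrc1, Uqcrfs1 and Uqcrh fell, by 0.51, 0.36, 0.36, 0.42 and 0.17 on the log2 scale. In complex I Ndufa6 rose to 101, 99.4, 94.1 and 94.4 CPM from 80.2, 71.3, 56.7 and 59.4 (log2 fold change 0.58, SE 0.10, adjusted p = 4.37e-05), while Ndufb10 fell to 82.5, 77.4, 76.5 and 77.3 from 103.9 to 129.6 CPM in vehicle. For Ndufb10 the log2 fold change was -0.56 (SE 0.070, adjusted p = 5.62e-07). Ndufb10 with DON moved the other way (0.18).

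CB-839 at 24 h left most members within the test's threshold: 2 rose and 3 fell (2.47% and 2.48% of all genes), all named here. Cox7a2l was at 103, 104, 108 and 108 CPM against 87.7, 88.9, 86.8 and 94.4 in vehicle (log2 fold change 0.25, SE 0.060, adjusted p = 0.0168), and Ndufaf1 rose by 0.23. Ndufb10 (-0.36), Ndufa12 (-0.30) and Ndufc1 (-0.21) fell. Whether or not they passed, 72 of the 88 members had a negative log2 fold change and 16 a positive one (median -0.08). The sums of complexes I to V were 0.933, 0.954, 0.946, 0.931 and 0.947 times vehicle, all overlapping. With library totals they were 0.948, 0.969, 0.962, 0.947 and 0.961 times, and only complexes II and V did not overlap. Libraries with the same letter deviated together in this comparison, with correlations of 0.591 to 0.742, and with the letter as a block 16 members passed in place of 5. Leaving out 1 library at a time gave 1 to 9 members (9 without vehicle C, 3 without CB-839 A, and 1 without vehicle A or B or CB-839 C). Between treatments at 24 h, DON was above CB-839 in 17 members and below in 25 (29% and 30.8%; 38 and 7 with library totals), and glutamine-free cells were above CB-839 in 21 and below in 26 (29.1% and 28.9%; 30 and 15). They were above DON in 21 and below in 17 (28.7% and 30.2%; 13 and 28). Among members whose log2 CPM averaged 3 or more and whose groups did not overlap, the direct differences between glutamine-free and DON cells were largest in Atp5g1 and Uqcrq (0.96) above and in Ndufb10 (-0.74) and Ndufaf1 (-0.38) below. Under the same limits DON and CB-839 cells differed most in Ndufb10 (0.54) and Cox7a2l (0.42) above and in Uqcr11 (-0.45) and Uqcr10 (-0.44) below. Again within these limits, glutamine-free and CB-839 cells differed most in Uqcrq (0.80) and Atp5g1 (0.77) above and in Uqcrfs1 (-0.48) and Ndufaf6 (-0.48) below.

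At 48 h the counts depended on vehicle replicate C. With all 4 vehicle libraries 29 members fell and 6 rose with DON (35.6% of all 16173 genes in each direction), and without C 21 fell and 26 rose (36.1% and 38%). Without glutamine 38 fell and 5 rose (26.3% and 28%), or 34 and 14 without C (27.3% and 28.8%). Cox6a2 is among the 5 that rose, as a description only. With CB-839 8 fell and 0 rose (6.73% and 8.5%; 15 members had an unadjusted p under 0.05, and 3 or 4 passed without CB-839 A, B or C), or 7 fell and 7 rose without C (10.4% and 11.9%). Members that passed in the same direction with and without C numbered 26 for DON, 38 without glutamine and 6 for CB-839. With library totals alone and all 4 vehicle libraries, the DON split was 14 fallen and 19 risen, and the glutamine-free split 27 and 7. Libraries treated with DON at 48 h had 6.92 to 7.15% of counts in short genes, 8.13 to 8.81% in ribosomal protein genes and 35 to 36.2% in long genes, between replicate C and the other vehicle libraries. Their B cell markers summed to 738 to 798 CPM against 493 to 543 in vehicle, and the part of either in the DON differences was not tested.

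The sums of complexes IV and V with DON at 48 h depended on C and on the scaling. Complex IV, at 2593 to 2880 CPM with DON, was 1.01 times vehicle with all 4 vehicle libraries (2046 to 3990 CPM, overlapping) and 1.2 times without C (2046 to 2467, not overlapping). With library totals alone the ratios of complex IV were 1.17 with C, overlapping, and 1.36 without it, not overlapping. Complex V, at 6121 to 6418 CPM with DON, was 0.838 times vehicle with C (6601 to 9202) and 0.906 times without it (6601 to 7162), neither overlapping, but 0.97 and 1.02 times with library totals, both overlapping. Complexes I, II and III were at 0.915, 0.923 and 0.813 times vehicle with C and 1.02, 0.959 and 0.931 without it, all overlapping. With library totals these 3 were at 1.06, 1.07 and 0.944 times with C and 1.16, 1.08 and 1.05 without it, and complex II in both cases and complex I without C did not overlap. With CB-839 all 5 sums overlapped vehicle, at 0.899 to 0.959 times with C and 0.997 to 1.08 without it. In complex IV 8 of 13 genes rose and 0 fell without C (median 0.24), where 2 rose and 0 fell with it (-0.05, or 0.15 with library totals). Cox6a1 (0.42), Cox6c (0.35), Cox5b (0.27) and Cox8a (0.27) were among the 8 without C, and none of these 4 passed with it. In complex III 3 fell and 1 rose without C (median -0.16) and 5 fell with it (-0.35), and in complex I 13 and 13 without C (0.00) and 14 fell and 3 rose with it (-0.16). In complex II 1 of 4 fell without C (-0.08) and 3 with it (-0.18), and in complex V 4 fell and 4 rose without C (-0.02) and 7 and 1 with it (-0.17). With library totals and all 4 vehicle libraries the medians of complexes I, II and V were 0.04, 0.01 and 0.02. Without glutamine complexes II and V were lower in sum without overlap, at 0.845 and 0.809 times vehicle with C, 0.878 and 0.875 without it, and 0.914 and 0.877 with C under library totals (0.928 and 0.925 without it). Complexes I, III and IV overlapped, at 0.864, 0.774 and 0.837 times with C and 0.967, 0.887 and 0.999 without it (0.938, 0.842 and 0.912, and 1.02, 0.938 and 1.06, with library totals). Gene by gene without glutamine, complex III had 6 of 8 fallen with C (median -0.50), and 6 fallen and 1 risen without it (-0.37). Complex I had 17 fallen and 1 risen with C (-0.23) and 15 and 6 without it (-0.07). Complex II had 2 of 4 fallen with C (-0.17) and 3 without it (-0.12). Complex IV had 4 fallen and 3 risen with C (-0.25) and 2 and 3 without it (-0.02), and complex V 9 and 1 with C (-0.23) and 8 and 4 without it (-0.11).

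The assembly factors of complex I fell in 5 of 8 with DON at 48 h, with or without C (medians -0.51 and -0.30), and in 6 of 8 without glutamine (-0.36 and -0.29). Ndufaf4 was at 67.2, 72.5, 68.7 and 62.2 CPM in vehicle, its replicate C within the range of the other 3, and at 31.7, 35.8, 37.7 and 36 CPM with DON. For Ndufaf4 the log2 fold change was -0.92 (SE 0.070, adjusted p = 7.4e-10, and -0.93 without C). The highest DON library, at 37.7 CPM, was below the lowest vehicle one, at 62.2 CPM, and CB-839 (53.3, 57.6, 57.5 and 64.4) and glutamine-free libraries (56.5, 58.1, 55.6 and 57.6) were all above the DON ones, the former overlapping vehicle and the latter below it. Ndufaf6 stood at 30.8, 28.6, 38.1 and 29.9 CPM in vehicle, 20.4, 20.8, 19.9 and 19.4 with DON (-0.64, and -0.56 without C) and 34.1, 35, 30.2 and 33.8 with CB-839. Ndufaf3 fell without glutamine, to 8.09, 7.28, 7.3 and 7.1 CPM from 11.3, 11.3, 18.9 and 15.5. For Ndufaf3 the log2 fold change was -0.92 (SE 0.13, adjusted p = 6.2e-06, and -0.77 without C). Ndufs1 was lower with both, at 113, 120, 128 and 120.3 CPM with DON and 117, 118, 116 and 123 without glutamine against 172, 179, 145 and 163 (-0.44 and -0.47, and -0.50 and -0.53 without C); here C was the lowest vehicle library. Ndufa5 (-0.72, and -0.50 without C) and Ndufa12 (-0.70, and -0.39) fell with DON, Ndufb10 without glutamine (-0.82, and -0.70). Atp5k (-0.97, and -0.46) and Uqcr11 (-0.92, and -0.52) also fell without glutamine.

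Complex IV has isoform genes whose levels parted between treatments. Cox6a2, the isoform of Cox6a known from heart and skeletal muscle, was counted at 0.224, 0.17, 0.491 and 0.0832 CPM in vehicle at 24 h and 11.4, 10.5, 10.9 and 7.78 CPM without glutamine, from 9, 7, 18 and 3 reads against 411, 484, 524 and 300, a difference of 5.43 on the log2 scale. These levels made the gene a member, so they are a description only. At 48 h the values were 0.317, 0.204, 0.627 and 0.603 and 11.3, 10.9, 8.34 and 12.5 CPM (4.67, and 4.88 without C), and at 4 h 0.131, 0.108, 0.236 and 0.0842 and 0.667, 0.795, 0.815 and 0.54 CPM (2.35). Each glutamine-free library was above every vehicle, CB-839 and DON library of its time. DON cells at 24 h also stood above vehicle, with 1.08, 0.362, 1.13 and 0.332 CPM and overlap (1.67), and CB-839 cells at 48 h were counted at 0.195, 0, 0.0936 and 0.0888 CPM, few reads in any library. The gene lies at chr7:128205435-128206387 on the minus strand (GRCm38) and shares 10.3% of its exonic bases with Itgad on the other strand, which had 32, 26, 15 and 33 counts without glutamine at 48 h against 1, 1, 1 and 0 in vehicle. Cox6a2 had 531, 402, 289 and 560 counts in the same glutamine-free libraries. Itgad rose there by 4.75 on the log2 scale against vehicle (edgeR, adjusted p = 4.62e-07). The counting did not use strand, so reads of the shared stretch cannot be told apart, and their part in the Cox6a2 level was not tested. CD4 T cell markers were also higher in these groups, 27.8 to 37.2 CPM against 11 to 12.8 in vehicle at 24 h and 30.6 to 38.4 against 7.0 to 8.33 at 48 h, and their part in the result was not tested. Per length Cox6a2 reached 35.6 TPM without glutamine at 48 h, beside 628 TPM of the ubiquitous Cox6a1.

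Cox6b2 at 48 h was at 3.87, 4.49, 7.82 and 6.88 CPM in vehicle, 19.3, 18.3, 13.9 and 14.3 with DON (log2 fold change 1.55, SE 0.17, adjusted p = 1.48e-07, and 1.72 without C), 8.01, 7.96, 8.42 and 8.7 without glutamine (0.55, and 0.72) and 3.35, 3.02, 2.76 and 2.4 with CB-839 (-0.98, and -0.80). The DON libraries were the highest and the CB-839 libraries the lowest, with no overlap between any pair of the 4 groups. DON and CB-839 differed by 2.53 (SE 0.18) in a direct test that does not involve the vehicle libraries. Per length Cox6b2 at 32.6 TPM with DON remained below Cox6b1 at 848 TPM. Cox7a2l was again higher with DON, at 220.1, 219, 229 and 223 CPM, and without glutamine, at 213, 216, 204 and 216, than in vehicle at 119.6, 114, 151 and 119 (0.84 and 0.76, and 0.92 and 0.85 without C), and CB-839 gave -0.02 (0.07 without C). No library of these groups reached the lowest unstimulated one, at 283 CPM. Of their ubiquitous relatives, Cox6b1 gave -0.02, Cox7a2 -0.07 and Cox6a1 0.12 with DON, none past the threshold with C (0.24, 0.17 and 0.42, all past it, without C). Atp5g1 without glutamine at 48 h stood at 64.8, 80.3, 75.8 and 58.6 CPM against 49, 48.5, 106 and 57.4 (0.11, not past the threshold, and 0.43, past it, without C). Atp5g3 stood at 388, 392, 387 and 336 against 539.7, 501, 658 and 545 (-0.57, and -0.49).

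**Figure D4:**
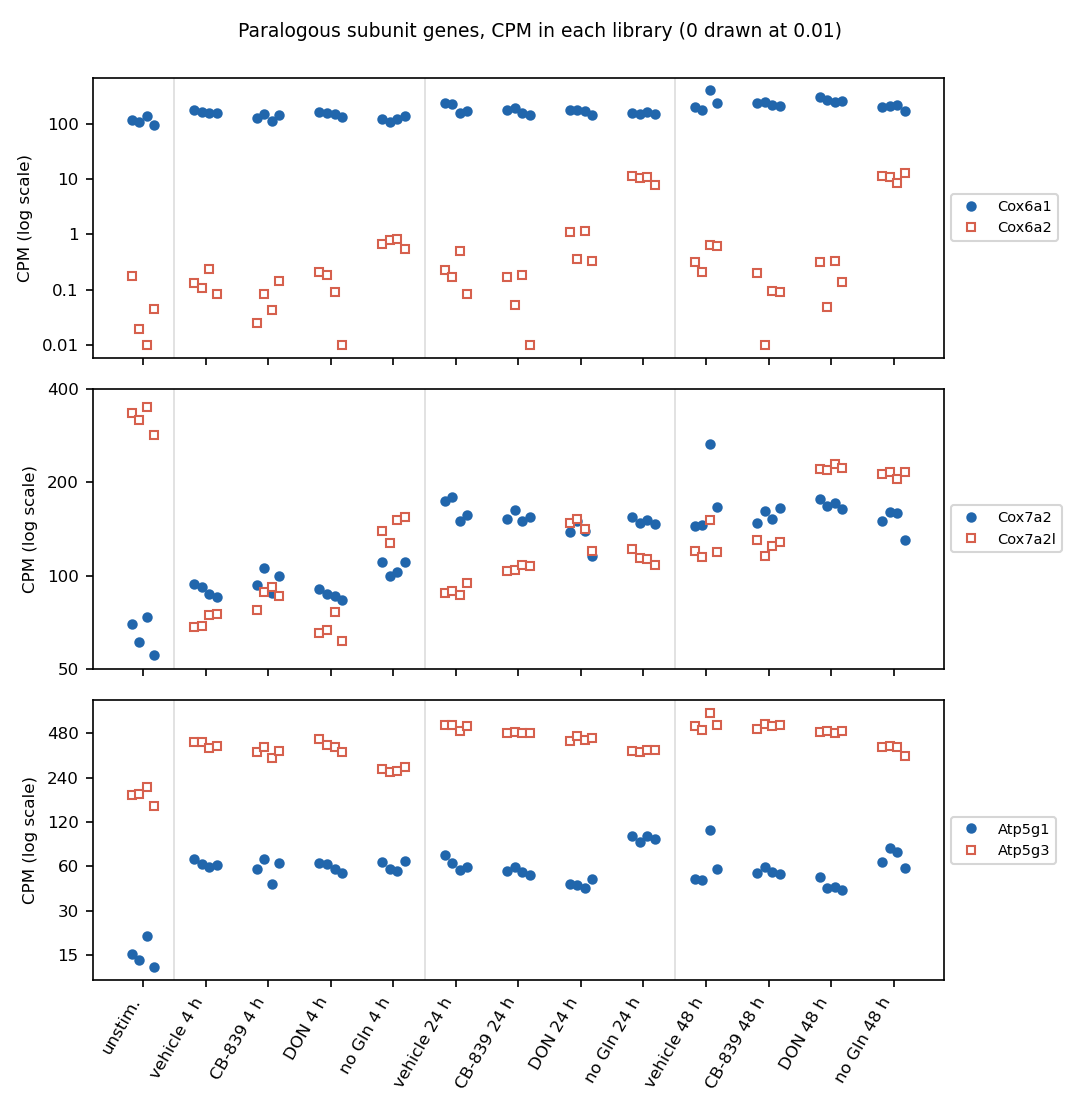
CPM on a log axis (vertical) of 3 pairs of related genes, Cox6a1 and Cox6a2, Cox7a2 and Cox7a2l, and Atp5g1 and Atp5g3, in the 13 groups (horizontal), each point a library and values of 0 drawn at 0.01. Cox6a2 is highest in glutamine-free cells at 24 and 48 h, between 7.78 and 12.5 CPM, Cox7a2l is highest in unstimulated cells, and Atp5g1 is higher without glutamine than in vehicle at 24 h while Atp5g3 is lower.

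Tested against each other at 48 h, DON cells were above CB-839 cells in 11 members and below in 15 (35.7% and 34.7%; 30 and 6 with library totals, 11 and 10 with RLE factors). Glutamine-free cells were above CB-839 cells in 6 and below in 25 (26.6% and 24.4%; 10 and 15), or 18 in all without glutamine-free D. They were above DON cells in 10 and below in 24 (34.6% and 34.1%; 6 and 40). Ndufaf6 (-0.71) and Ndufaf4 (-0.70) were lower with DON than with CB-839, and Ndufb2 was higher (1.29). Ndufaf3 (-0.74) and Uqcr11 (-0.69) were lower without glutamine than with CB-839, and Cox6b2 (1.53) and Cox7a2l (0.78) higher. Against DON, glutamine-free cells were higher in Ndufaf4 (0.68) and Atp5g1 (0.63) and lower in Cox6b2 (-1.0) and Ndufb2 (-0.98). These direct tests use no vehicle library except for the shared estimate of spread.

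Whether a treatment's difference from vehicle changed between 24 and 48 h was tested in 1 fit of the 32 later libraries. For DON 3 members had a higher difference at 48 h and 12 a lower one (18.2% and 22.1% of 17257 genes), or 29 and 9 without C (20.5% and 23.9%), and leaving out single libraries gave 11 to 38 members in all. Without glutamine 5 were higher and 13 lower (16.5% and 12.6%), or 8 and 11 without C (17.6% and 13.9%). For CB-839 0 were higher and 1 was lower (2.27% and 1.23%), with 7 at an unadjusted p under 0.05 and 2 passing in DESeq2, or 2 higher and 1 lower without C (3.37% and 2.3%). Ndufaf1, up with DON at 24 h, was at 30.7, 32.8, 37.6 and 33.8 CPM with DON and 39.4, 40.9, 30.3 and 36.3 in vehicle at 48 h, and its difference dropped by 0.77 on the log2 scale (by 0.86 without C), while that of Ndufaf4 dropped by 0.81 in both. In complex IV 1 of 13 differences was higher with DON at 48 h and 1 lower with C (median 0.15), and 10 and 1 without it (0.41). Cox6b2 was the higher one with C (0.85) and passed without it (1.02), whereas Cox6a1 (0.32) and Cox5b (0.22) passed only without C (0.62 and 0.54). Without glutamine the difference of Cox7a2l was higher at 48 h (0.37, and 0.47 without C), as was that of Ndufv1, which binds NADH (0.31, and 0.38), and those of Ndufaf3 (-0.83, and -0.67) and Ndufaf1 (-0.55, and -0.63) were lower.

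Other genes of the pathway, which are not members, were counted beside them, with the shares of all genes that rose and fell in the same comparison. At 4 h of activation, where 33.9% of all genes rose and 41% fell, 18 of 34 tested assembly factors outside the symbol rule (such as Surf1 and Sco1) rose and 9 fell. Of 17 electron carriers and feeding enzymes (such as Cycs, cytochrome c) 11 rose and 3 fell, and of 16 tested genes of mitochondrial DNA upkeep and nuclear regulators 11 rose and 2 fell. At 24 h (38.7% and 45.5%) the 3 lists, in this order, had 27 risen and 6 fallen, 15 and 1, and 12 and 2. Without glutamine at 4 h (16.2% and 21.4%) they had 2 and 12, 2 and 7, and 6 and 1 of 17 then tested, and at 24 h (30% and 28.9%) 9 and 12, 4 and 7, and 2 and 6, where the first list lies near the share of all genes. DON at 24 h (28.1% and 29.9%) gave 9 and 13, 2 and 13, and 2 and 9. DON at 48 h (35.6% in each direction) gave 8 and 18, 2 and 13, and 1 and 12, with medians of -0.25, -0.53 and -0.43. Without C (38% and 36.1%) it gave 11 and 18, 2 and 13, and 1 and 12, with medians of -0.23, -0.45 and -0.45. Without glutamine at 48 h (28% and 26.3%) the counts were 4 and 15, 4 and 8, and 3 and 5, and without C (28.8% and 27.3%) 6 and 14, 4 and 6, and 3 and 6.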

How the data were processed

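RNA counts per gene were deposited by the authors for 52 libraries, 4 in each of 13 groups. Per the file headers they come from featureCounts 2.0.1 on read pairs over GENCODE M25 exons, and no strand setting was given. The library kit was a stranded one by the labels. The submitters' processing notes also name FastQC, STAR, Bowtie2, MACS2 and deepTools. The 37 mitochondrial genes had 0 genes with counts. The authors deposited H3K27ac and H3K27me3 peak lists for 48 h that merge 2 libraries each, with the −log10 of the irreproducible discovery rate (IDR) per peak, at an IDR of at most 0.05.

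From the counts, TMM-scaled CPM were computed with edgeR 4.0.16 in R 4.3.3, and TPM from exonic length. Each comparison was fitted over all groups of its time with edgeR's quasi-likelihood test after a filter on low counts, with Benjamini-Hochberg adjustment over all genes tested and a threshold of 0.05. DESeq2 1.42.0, RLE factors, library totals alone, no filter, a fit of all 52 libraries, a replicate block and leaving out each library were alternatives, and the scripts were tested on simulated data. The analysis without vehicle 48 h replicate C, in every comparison that includes that group, and the sums by library totals were chosen after seeing the data. Replicates of every group differed by more than sampling noise. The members and gene lists were chosen with earlier results of these data known. Genes named are up to 3 that rose and 3 that fell per comparison (2 and 2 between treatments and for changes of a difference over time), with mean log2 CPM of at least 3 and groups that did not overlap, plus a fixed panel of subunits and assembly factors; other names were chosen after their values were seen. The results of 1 member are not reported here. Same-lettered libraries deviated together in some comparisons, with correlations of 0.591 to 0.742 for CB-839 against vehicle at 24 h. At 4 h they were 0.515 to 0.686 for CB-839 and 0.205 to 0.685 for DON against vehicle.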

Additional observations from a re-analysis of the deposited data

Results flagged for a closer look

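Among 325 sets of 4 libraries tested over the members named above, 7 had a library whose gap to the nearest of the others was larger than the 95% critical value of Dixon's test allows, where chance flags about 1 in 20. In vehicle at 48 h, replicate C was far above the others for Cox7a2l (151 CPM), Atp5g1 (106 CPM) and Sdhd (314 CPM), and the same library stands apart in the report. Atp5g3 was lowest in vehicle 24 h replicate C (498 CPM) and in glutamine-free 48 h replicate D (336 CPM). Ndufaf4 was highest in DON 24 h replicate D (79.8 CPM), and Ndufb10 in glutamine-free 24 h replicate A (82.5 CPM).

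Listed here are 7 results in which the difference between a treatment and vehicle changed from 24 to 48 h, by a test of that change in edgeR. The list is not complete. Other members named above also passed, among them Cox6b2 (0.85) and Ndufaf6 (-0.52) with DON and Ndufaf4 (-0.51) without glutamine. With DON the log2 difference was higher at 48 h for Sdha (0.15) and lower for Ndufaf4 (-0.81) and Ndufaf1 (-0.77). Without glutamine it was higher for Cox7a2l (0.37) and Ndufv1 (0.31) and lower for Ndufaf3 (-0.83) and Ndufaf1 (-0.55). All 7 changes rest on the same vehicle libraries at each time. Without vehicle 48 h replicate C the value of Sdha was 0.12 and no longer passed, and the other 6 passed, at -0.81 and -0.86 for Ndufaf4 and Ndufaf1 with DON and 0.47, 0.38, -0.67 and -0.63 for Cox7a2l, Ndufv1, Ndufaf3 and Ndufaf1 without glutamine.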

How the results depend on the processing

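Of the counts of members that passed, 25 in all, RLE factors moved none by over 1.5 times. Without the low-count filter, the vehicle count from 24 to 48 h was 12, CB-839 at 48 h 5 and the change of the glutamine-free difference 10. In a fit of all 52 libraries these were 32 for vehicle from 24 to 48 h, 7 for CB-839 at 4 h, 0 for CB-839 at 24 h, 5 for DON against CB-839 at 4 h, 23 for glutamine-free against DON at 24 h, 43 for DON against CB-839 at 48 h and 0 for the change of the CB-839 difference. Library totals gave 34 for CB-839 at 4 h and 43 for DON against CB-839 at 4 h. DESeq2 gave 10 for CB-839 at 24 h and 2 for the change of the CB-839 difference. With the replicate letter as a block, CB-839 at 24 h gave 16 in place of 5, and the block moved no other count by over 1.5 times.

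Leaving out 1 library gave 10 to 20 members for CB-839 at 4 h (14 or fewer without vehicle A, B or D or CB-839 A or C), 1 to 9 at 24 h (9 without vehicle C, 3 or fewer without vehicle A or B or CB-839 A or C) and 3 to 14 at 48 h (14 without vehicle C, 4 or fewer without CB-839 A, B or C). It gave 18 to 30 for glutamine-free against CB-839 at 48 h (18 without glutamine-free D), 0 to 3 for the change of the CB-839 difference, and 11 to 38 for that of the DON difference (38 without vehicle 48 h C).

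Library totals changed medians at 4 h of activation to 0.07, 0.16, 0.64, 0.19 and 0.35 for complexes I to V, at 24 h to 0.54, 0.68, 0.89, 0.51 and 0.60, and at 48 h to 0.93 for II and 0.92 for V. From 4 to 24 h the medians of II and V were 0.52 and 0.34 with library totals and 0.49 and 0.31 with RLE factors. With DON at 24 h library totals gave 0.09, -0.02, -0.15, 0.04 and -0.05 for I to V, without glutamine 0.06 for I, -0.18 for II and 0.05 for V, and with DON at 48 h 0.01 for II. Among named genes, library totals turned Cox5a with DON at 24 h to 0.04 and Atp5g3 with DON at 48 h to 0.02. Over left-out libraries, Atp5g1 from 24 to 48 h in vehicle ran from -0.28 (without vehicle 48 h C) to 0.17, and Cox7a2 with DON at 48 h from -0.16 to 0.17 (without vehicle C). The cause of these changes was not tested.

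Member promoters with H3K27me3 numbered 1 in vehicle at an IDR of at most 0.01 and 0 where at least 50% of the peak had to lie in the window, 1 with CB-839 under the latter, and 2 without glutamine within 2500 bases. An IDR of at most 0.01 left too few H3K27ac peaks to count. Depth limits low members such as Cox6a2 in vehicle.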
